A study of Mus musculus with 12 samples.

Results

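Levels of 9 genes that regulate coagulation and fibrinolysis were followed in the mouse cecum after surgical injury: F3, Thbd, Tfpi, F13a1, Plat, Plau, Plaur, Serpine2 and Serpinb2. The genes were chosen by name, and every array probe carrying one of these names was used, which gave 17 of the 56605 probes and 9 of the 37074 genes on the array. Total RNA came from the cecum of C57BL/6 mice and was hybridised to single-colour Agilent arrays. Injury was made with bipolar forceps in coagulation mode, a model in which the cauterized serosa forms adhesions. The 12 arrays fell into 4 groups of 3: ceca taken at 3 h, at 12 h or at 72 h from the cautery, and sham-operated control ceca, for which the labels give no time and the methods give 0 h. No transgene, drug or antibody distinguished the groups, and the authors describe the tissues of a group as biological triplicates. No 3 h, 12 h or 72 h sham group was analysed here, so laparotomy alone and cautery cannot be told apart from these arrays.

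Fibrin is laid down when tissue factor, exposed at a wound, starts the reactions that make thrombin, and factor XIII then cross-links the fibrin strands. Tissue factor pathway inhibitor and thrombomodulin hold this process back. Plasmin dissolves fibrin once plasminogen has been cut by tissue-type or urokinase-type plasminogen activator, the urokinase receptor keeps urokinase at the cell surface, and inhibitors of the serpin family stop the activators. The balance of these 2 arms on the peritoneal surface is known to bear on whether fibrin persists after an operation.

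Values below are log2 probe intensities minus the log2 75th percentile of the same array, so a level of 0 marks an intensity equal to that percentile, and levels of different probes are not compared with each other. A difference was called when it exceeded 2-fold and had a Benjamini-Hochberg adjusted p under 0.05 in a limma fit of all probes on all 12 arrays. Where a gene has several probes, the brightest on average stands for it unless another is named, and errors are SD (n = 3) for levels and SE for differences. A probe is said to be above background where the scanner software marked it as well above background. In whole tissue, fewer cells of a type and less RNA per cell cannot be told apart.

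The arrays resembled each other closely within groups, with Pearson correlations of 0.985 to 0.992 over all probes, and 60.2% to 65.2% of probes were above background on each. All 8 markers of cecal epithelium were above background on all 12 arrays. The labels describe male animals, yet the female transcript Xist was above background on every array and the Y-linked Ddx3y and Eif2s3y on none, with Uty on 1 and Kdm5d on all 12. Sham, 3 h and the 12 h replicates 1 and 2 were hybridised on 1 slide, and the 12 h replicate 3 and all 72 h arrays on another. The 12 h group alone spans both slides, by 1 array, and values with the slide as a block are given beside the results against sham and between injured groups that it moved most. The block sets that 1 array against the 12 h replicates 1 and 2, so it cannot tell a slide effect from the spread of replicates.

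Of the 9 genes, 4 were called higher 3 h after cauterization (Serpinb2, Plaur, F3 and Plat), 3 at 12 h (Serpinb2, Plaur and F13a1) and 6 at 72 h (Serpinb2, Plaur, Plat, F13a1, Serpine2 and F3), and none was called lower at any time. Among all genes, 3.14% were called higher at 3 h, 3.95% at 12 h and 4.5% at 72 h, and 4.33%, 5.33% and 4.4% lower. In time order, the median difference of the 9 genes from sham was 0.58, 0.40 and 1.76, against 0.06, -0.04 and -0.15 for all genes. On all 12 arrays 8 of the 9 were above background, and the exception was Serpinb2, above background on the 9 injured arrays and on no sham array. With the slide as a block the same 6 genes were called at 72 h, with adjusted p of 0.0451 for F13a1 and 0.03 for Plat.

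**Figure D1:**
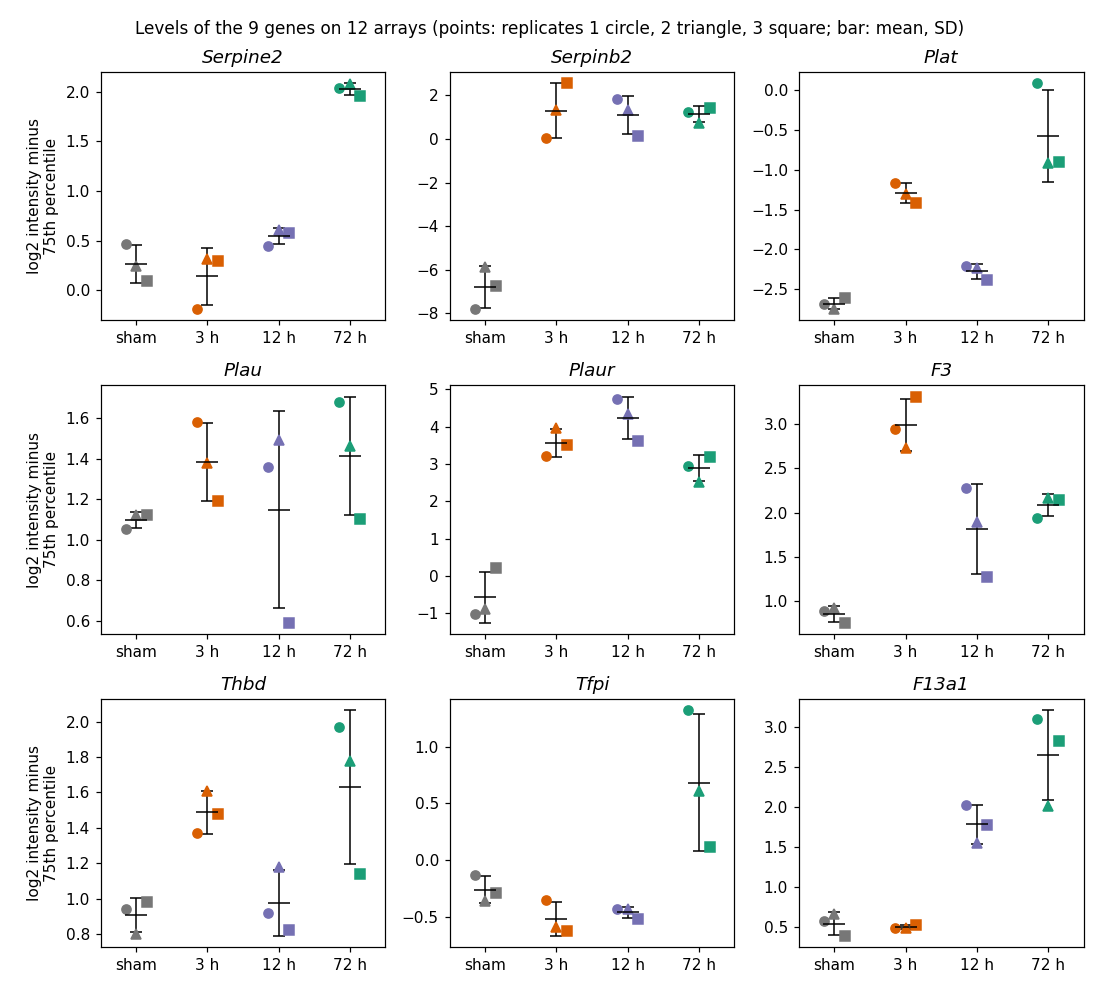
Level of each of the 9 genes on the 12 arrays, as log2 intensity minus the 75th percentile (vertical axis, a separate scale for each gene), for sham and the 3 times after cauterization; points are replicates and bars the mean and SD. Serpinb2 and Plaur sit above sham at all 3 times, F3 is highest at 3 h, Serpine2 stands apart at 72 h, and the Plau groups lie within 1.1 to 1.41 in their means.

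Promoter sequence was available for 6 of the 9 genes (Serpine2, Serpinb2, Tfpi, F3, Plaur and F13a1) in RefSeq, build GRCm38.p6, and 4 windows of the 250 bases before the transcription start are shown because these genes differ in their time of rise. Against sham, Plaur, F3 and Serpinb2 were called at 3 h, and Serpine2 at 72 h only. All run 5′ to 3′ on the gene's own strand, and capitals mark the letters matched in a search of both strands for an AP-1 site (TGACTCA), a cyclic AMP response element (TGACGTCA), a STAT site (TTCNNNGAA), a TATA box (TATAAA) and the NF-kB consensus.
Plaur, chr7:24462233-24462482, + strand: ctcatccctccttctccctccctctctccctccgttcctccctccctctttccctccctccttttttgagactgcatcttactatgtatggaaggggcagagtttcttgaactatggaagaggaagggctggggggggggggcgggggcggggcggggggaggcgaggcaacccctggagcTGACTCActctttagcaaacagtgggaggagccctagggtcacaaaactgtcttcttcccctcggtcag
F3, chr3:121723287-121723536, + strand: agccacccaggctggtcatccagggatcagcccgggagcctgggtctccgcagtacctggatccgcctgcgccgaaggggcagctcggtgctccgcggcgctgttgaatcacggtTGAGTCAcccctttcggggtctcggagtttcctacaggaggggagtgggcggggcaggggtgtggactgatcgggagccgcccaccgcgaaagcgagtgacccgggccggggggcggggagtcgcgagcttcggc
Serpinb2, chr1:107511173-107511422, + strand: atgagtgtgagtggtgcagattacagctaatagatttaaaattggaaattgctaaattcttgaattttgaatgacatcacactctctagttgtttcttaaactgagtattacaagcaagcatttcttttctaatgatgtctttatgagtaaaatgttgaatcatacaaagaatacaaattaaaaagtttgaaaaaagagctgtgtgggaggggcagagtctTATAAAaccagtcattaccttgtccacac
Serpine2, chr1:79858666-79858915, - strand: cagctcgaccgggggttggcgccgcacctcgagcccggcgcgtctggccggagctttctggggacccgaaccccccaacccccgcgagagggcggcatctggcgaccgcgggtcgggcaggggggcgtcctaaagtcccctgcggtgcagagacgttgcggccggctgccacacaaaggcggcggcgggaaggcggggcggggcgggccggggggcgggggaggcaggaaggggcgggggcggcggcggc
The Plaur window held 1 AP-1 match, 69 to 63 bases before the start, and the F3 window 1 match on the opposite strand, 135 to 129 bases before it, a motif found in 4.46% of the 32851 promoter windows of this length. The Serpinb2 window held the TATA letters 29 to 24 bases before the start, as did 12.4% of windows at any position, and a second Serpinb2 window starting further downstream also held a STAT match, found in 7.02% of windows. No letters of these 5 motifs were found in the Serpine2 window, of which 78.8% is G or C against a median of 52.4% for all windows, nor in either F13a1 window. Of the 2 Tfpi windows, 1 held the TATA letters, on the opposite strand. A match describes the letters only.

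F3 encodes tissue factor, the receptor for factor VII that starts coagulation. Its levels were 0.89, 0.93 and 0.76 in sham, 2.94, 2.73 and 3.31 at 3 h, 2.28, 1.89 and 1.27 at 12 h, then 1.94, 2.17 and 2.14 at 72 h. Every injured array lay above every sham array, and the 3 h arrays lay above all others. F3 rose 4.39-fold at 3 h (log2 difference 2.13 ± 0.24, adjusted p = 0.000347) and was 2.33-fold higher at 72 h (1.22 ± 0.24, adjusted p = 0.00562). At 12 h the difference was 0.95 ± 0.24 (1.94-fold, adjusted p = 0.0167), just short of the 2-fold limit. The fall from 3 h to 12 h was called at -1.18 ± 0.24 (adjusted p = 0.0152). Both of these results turned on the 12 h replicate 3, the lowest injured array: without it the 12 h difference from sham was 1.23 and called (adjusted p = 0.00259), and that from 3 h was -0.91 and no longer exceeded 2-fold. The slide as a block gave the same 12 h values and moved the 72 h difference from sham to 2.04 (adjusted p = 0.0116) and that from 3 h to -0.09 (adjusted p = 0.884).

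Thbd, which encodes the endothelial thrombin receptor thrombomodulin, and Tfpi, which encodes the inhibitor of the tissue factor complex, were not called against sham at any time in the fit of all 12 arrays. Thbd levels were 0.94, 0.80 and 0.98 in sham, 1.37, 1.61 and 1.48 at 3 h, 0.92, 1.18 and 0.82 at 12 h, then 1.97, 1.78 and 1.14 at 72 h. The 3 h and 72 h arrays all lay above the sham arrays, while 12 h overlapped with sham. The differences were 0.58 ± 0.20 at 3 h (1.5-fold, adjusted p = 0.0672), 0.07 ± 0.20 at 12 h (adjusted p = 0.922) and 0.72 ± 0.20 at 72 h (1.65-fold, adjusted p = 0.0269), and the 95% interval at 72 h, 0.29 to 1.16, reached past 2-fold. With the slide as a block the 72 h difference was 0.95 (adjusted p = 0.195). Over all 4 groups Thbd differed with an adjusted p of 0.0271 (moderated F-test), which 39.5% of all genes passed at 0.05.

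Tfpi levels were -0.13, -0.36 and -0.29 in sham, -0.35, -0.59 and -0.62 at 3 h, -0.43, -0.43 and -0.52 at 12 h, then 1.32, 0.61 and 0.12 at 72 h. The 3 arrays at 72 h were all above the other 9 but spread over more than 1 log2 unit, more than in any other group. Tfpi was 1.92-fold higher at 72 h than in sham (0.94 ± 0.24, adjusted p = 0.022), under the 2-fold limit. This difference was called without the 72 h replicate 3 (1.23, adjusted p = 0.00397) and without the sham replicate 1 (1.01, adjusted p = 0.0449), and was 1.04 with the slide as a block (adjusted p = 0.248). Tfpi was called higher than at 12 h (1.14 ± 0.24, adjusted p = 0.0106) and than at 3 h (1.20 ± 0.24, adjusted p = 0.0048). Without the 72 h replicate 1 these last differences were 0.82 and 0.89 and were not called, and with the slide as a block they were 1.21 and 1.30 with adjusted p of 0.105 and 0.106. The 2 further Tfpi probes, above background on all 12 arrays, gave 0.48 ± 0.18 and 0.81 ± 0.32 at 72 h against sham, neither called, and the last was above background on no array.

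The 72 h arrays that were high in Tfpi were also high in other tissue markers. The log2 summed intensity of 9 endothelial markers was 2.63 to 2.72 in sham, 2.13 to 2.44 at 3 h, 2.37 to 2.51 at 12 h, and 4.25, 3.5 and 2.95 on the 72 h replicates 1, 2 and 3, and 5 of the 9 markers were called higher at 72 h. Cdh5, an endothelial cadherin, was 1.75 ± 0.32 higher (adjusted p = 0.00416), while Pecam1 differed by 0.44 ± 0.25 (adjusted p = 0.26). The summed level of 5 fat cell markers was 3.46 to 4.48 in sham, 1.54 to 2.64 at 3 h, 0.98 to 2.65 at 12 h, and 6.61, 5.04 and 0.66 on the same 3 arrays at 72 h. Tfpi and Thbd both ran from replicate 1 down to replicate 3 at 72 h, as did these sums. The fibroblast sum (9.38, 8.78 and 8.2) and the mesothelial sum (3.13, 1.84 and 1.7) ran the same way. The smooth muscle sum rose instead (5.13, 5.47 and 5.86), and that of cecal epithelium kept neither order (8.32, 8.82 and 8.65). This order was thus not particular to endothelial and fat cell markers. The part of the marked cells in the values of both genes was not tested.

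F13a1 encodes the catalytic A subunit of factor XIII, which circulates in plasma and is carried by platelets and macrophages. Its levels were 0.58, 0.67 and 0.39 in sham, 0.49, 0.49 and 0.53 at 3 h, 2.03, 1.55 and 1.78 at 12 h, then 3.10, 2.02 and 2.83 at 72 h. Sham and 3 h overlapped, 12 h and 72 h lay above both, and the lowest 72 h array lay just under the highest 12 h array. F13a1 rose 2.36-fold at 12 h (1.24 ± 0.24, adjusted p = 0.00509) and 4.30-fold at 72 h (2.10 ± 0.24, adjusted p = 0.000405), and differed by -0.04 ± 0.24 at 3 h (adjusted p = 0.919). It was also higher at 12 h than at 3 h (1.28 ± 0.24, adjusted p = 0.012) and at 72 h than at 3 h (2.15 ± 0.24, adjusted p = 0.000245), whereas the step from 12 h to 72 h, 0.86 ± 0.24 (adjusted p = 0.0345), was under 2-fold. That step was called without the 72 h replicate 2 (1.18, adjusted p = 0.00367), with the mean of the probes (1.13, adjusted p = 0.0189) and on both further probes (1.40 and 1.11, adjusted p = 0.0247 and 0.0465). With the slide as a block it was 0.87 and not called (adjusted p = 0.235). A second probe, above background on all arrays, gave 0.61 ± 0.36 at 12 h and 2.01 ± 0.36 at 72 h, and only the latter was called. Another was above background on the 6 arrays of 12 h and 72 h alone, and was at least 2.71-fold higher at 72 h than in sham (adjusted p = 0.0036). A bound of this kind sets the mean of the bright group against the lowest signal counted as above background on the dim arrays. Averaging the probes took the 12 h value to 0.88, which lost the call.

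Markers of macrophages and monocytes and of platelets moved in the same samples. Of 10 macrophage and monocyte markers, 1 was called higher and 1 lower at 3 h, 5 higher and 1 lower at 12 h, and 7 higher at 72 h. Cd68, a lysosomal protein of macrophages, differed from sham by -0.03 ± 0.18 at 3 h (adjusted p = 0.916) and was higher by 1.34 ± 0.18 at 12 h (adjusted p = 0.000638) and by 1.97 ± 0.18 at 72 h (adjusted p = 0.000101). The summed level of the list was 5.06 to 5.87 in sham, 6.64 to 6.94 at 3 h, 7.07 to 7.16 at 12 h and 6.37 to 6.5 at 72 h. Ly6c2, an antigen of inflammatory monocytes, made up 83.2% of that sum at 12 h and was called lower from 12 h to 72 h (-2.5 ± 0.35, adjusted p = 0.00139), while 5 of the other 9 markers were called higher over that step. The 8 platelet markers summed to 1.63 to 1.85 in sham, 3.25 to 4.08 at 3 h, 2.99 to 3.83 at 12 h and 4.14 to 4.53 at 72 h, with 4, 2 and 2 of them called higher. Pf4 alone made up 94.3% to 96.5% of the platelet sum in every group, and at 72 h Gp1ba, Gp1bb, Gp6 and Itga2b differed from sham by 0.27, 0.26, -0.02 and 0.62, none of them called. Gp1ba was above background on no array, and Ppbp, Gp9 and Itga2b on no sham array. The part of these cells in the F13a1 values was not tested.

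**Figure D2:**
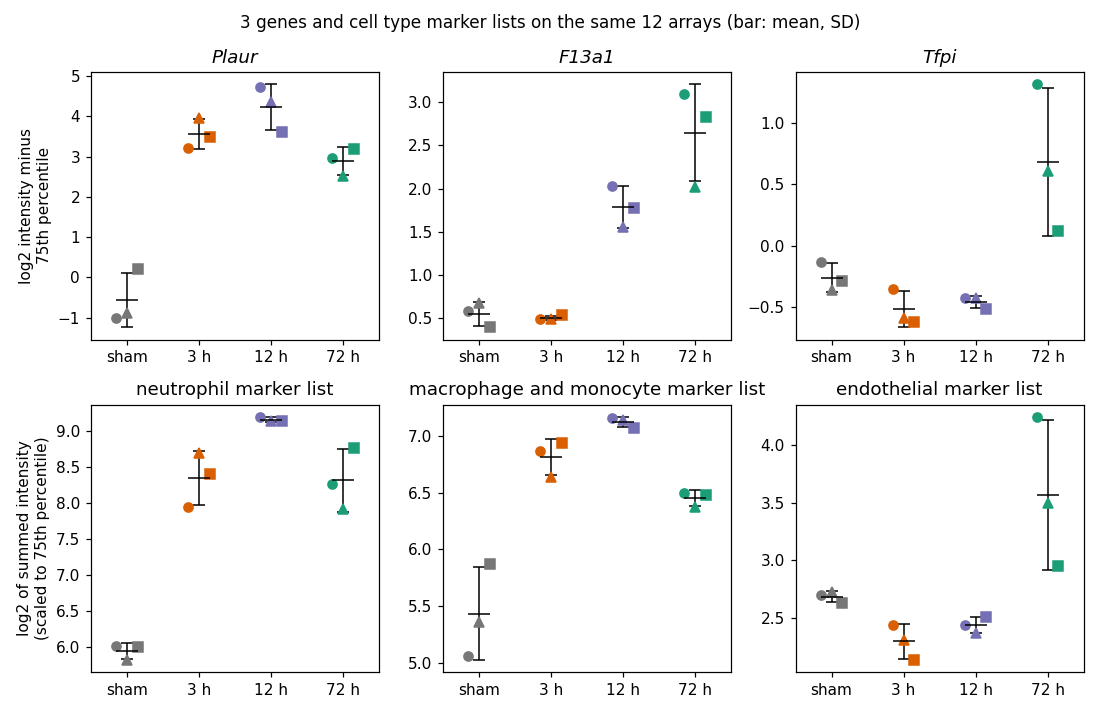
Upper row, level of Plaur, F13a1 and Tfpi on the 12 arrays, as log2 intensity minus the 75th percentile; lower row, log2 of the summed scaled intensity of neutrophil, macrophage and monocyte, and endothelial markers on the same arrays; points are replicates and bars the mean and SD. The neutrophil sum and the macrophage and monocyte sum are both lowest in sham and highest at 12 h, as Plaur is. Ly6c2 made up 83.2% of the macrophage and monocyte sum at 12 h. The 72 h arrays spread in the same order for Tfpi and the endothelial sum.

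Plat and Plau encode the tissue-type and urokinase-type plasminogen activators, and the 2 genes differed in what was called. Plat levels were -2.69, -2.75 and -2.61 in sham, -1.17, -1.30 and -1.42 at 3 h, -2.21, -2.24 and -2.39 at 12 h, then 0.09, -0.91 and -0.90 at 72 h. No 2 groups overlapped: sham was lowest, then 12 h, then 3 h, then 72 h. Among all genes, 36.7% did not overlap for 12 h against sham, 29.6% for 12 h against 3 h and 56.9% for 72 h against 3 h. Plat rose 2.61-fold at 3 h (1.39 ± 0.23, adjusted p = 0.00305) and 4.30-fold at 72 h (2.11 ± 0.23, adjusted p = 0.000331), and the 12 h difference of 0.40 ± 0.23 was not called (adjusted p = 0.275). Between the 2 peaks it fell to 12 h by 0.98 ± 0.23 (adjusted p = 0.0296), just short of 2-fold, and the later step from 12 h to 72 h was called at 1.71 ± 0.23 (3.26-fold, adjusted p = 0.00128). The 3 h rise was 0.80 with another background correction (normexp) and 0.79 with the mean of both Plat probes, under 2-fold in both cases. The second probe was above background on no array.

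Plau was above background on all 12 arrays and was called in none of the 6 comparisons. Its levels were 1.05, 1.12 and 1.12 in sham, 1.58, 1.38 and 1.19 at 3 h, 1.36, 1.49 and 0.59 at 12 h, then 1.68, 1.46 and 1.1 at 72 h. The 12 h and 72 h arrays overlapped with sham, and the 3 h arrays lay just above it. The differences from sham were 0.29 ± 0.23 at 3 h (adjusted p = 0.412), 0.05 ± 0.23 at 12 h (adjusted p = 0.979) and 0.32 ± 0.23 at 72 h (adjusted p = 0.384), and the 95% interval at 72 h ran from -0.20 to 0.83, which excludes a doubling in this fit. With the slide as a block the 72 h difference was 1.15 (adjusted p = 0.0693), so the bound holds only in the fit without the block. The slide term here comes from the 12 h replicate 3 (0.59) against replicates 1 and 2 (1.36 and 1.49). A slide effect and the spread of these replicates cannot be told apart. A second Plau probe, also above background on all arrays, gave 0.21 ± 0.29, -0.01 ± 0.29 and 0.26 ± 0.29 at the 3 times. Its sequence is shown because it joins 2 exons and so reads spliced message: the 60 bases cover 367 bases of chromosome 14 in mm9, the build of the array's annotation.
Plau, chr14:21659855-21660221, + strand: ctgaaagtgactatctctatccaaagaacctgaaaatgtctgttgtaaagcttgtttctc

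Plaur encodes the urokinase receptor, a surface protein of leukocytes and many injured tissues. Levels were -1.02, -0.89 and 0.22 in sham, 3.21, 3.96 and 3.5 at 3 h, 4.74, 4.35 and 3.62 at 12 h, then 2.96, 2.51 and 3.20 at 72 h. All 9 injured arrays lay above the sham arrays by more than 2 log2 units. The 72 h arrays lay below those of 12 h and only just below those of 3 h (highest 3.20, lowest 3.21). The 72 h difference from 3 h, -0.66 ± 0.38, was not called (adjusted p = 0.196) and was 0.26 with the slide as a block. Between 72 h and 3 h, 56.9% of all genes did not overlap. Plaur rose 17.3-fold at 3 h (4.12 ± 0.38, adjusted p = 0.000137), 27.8-fold at 12 h (4.80 ± 0.38, adjusted p = 3.72e-05) and 10.9-fold at 72 h (3.45 ± 0.38, adjusted p = 0.000329), the last being 4.38 with the slide as a block (adjusted p = 0.00986). The 3 h and 12 h values differed by 0.68 ± 0.38 (adjusted p = 0.292). The fall from 12 h to 72 h was called at -1.35 ± 0.38 (adjusted p = 0.0364), but the call was lost in 12 of 27 alternatives, among them the slide as a block (-0.73, adjusted p = 0.415) and the fits without the 12 h replicate 1 (-1.09, adjusted p = 0.123), the 12 h replicate 2 (-1.29, adjusted p = 0.101), the 3 h replicate 3 (adjusted p = 0.0504), the 72 h replicate 1 (-1.38, adjusted p = 0.0845) and the 72 h replicate 2 (-1.16, adjusted p = 0.121).

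Most neutrophil markers, but not all, rose where Plaur did. The summed level of 10 such genes was 5.81 to 6.01 in sham, 7.94 to 8.69 at 3 h, 9.14 to 9.20 at 12 h and 7.91 to 8.77 at 72 h, with 7, 9 and 6 of the 10 called higher. Csf3r made up 93.9% of the sum in sham and S100a9 58.3% to 61.4% in the injured groups. The markers Cxcr2, Ngp and Ltf were above background on no sham array. Csf3r itself differed from sham by -0.46 ± 0.13 at 3 h (adjusted p = 0.0296), and the lowest difference on the list was -0.37 at 12 h and -0.41 at 72 h. The largest difference at 3 h and at 12 h was that of S100a8, an abundant neutrophil protein above background on 2 sham arrays. It was higher by 10.77 ± 0.59 at 3 h (adjusted p = 8.88e-06) and by 12.29 ± 0.59 at 12 h (adjusted p = 3.38e-06). At 72 h the largest difference on the list was 10.95, and from 12 h to 72 h 3 of the 10 markers were called lower and 0 higher. The macrophage and monocyte sum was likewise lowest in sham (5.06 to 5.87) and highest at 12 h (7.07 to 7.16), where Ly6c2 made up 83.2% of it. The part of neutrophils, monocytes and macrophages in the Plaur values was not tested.

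Serpinb2 encodes an inhibitor of urokinase and of tissue-type activator that stays mostly inside the cell. Its single probe read -7.80, -5.87 and -6.72 in sham, where it was above background on no array, 0.03, 1.33 and 2.54 at 3 h, 1.85, 1.33 and 0.14 at 12 h, then 1.25, 0.71 and 1.42 at 72 h. The lowest injured array lay more than 5 log2 units above the highest sham array. Because sham held only a bound, the rise is given as at least 115-fold at 3 h (adjusted p = 7.91e-05), at least 100-fold at 12 h (adjusted p = 5.71e-05) and at least 102-fold at 72 h (adjusted p = 7.15e-05). The size depends on the background correction: with normexp the differences were 3.78, 3.65 and 3.67, all called, whereas with the slide as a block that at 72 h was 9.37 (adjusted p = 0.0052). The 3 times did not separate: 12 h differed from 3 h by -0.19 ± 0.68 and 72 h from 12 h by 0.02 ± 0.68 (adjusted p = 0.879 and 0.986), and the intervals, -1.70 to 1.31 and -1.49 to 1.53, leave room for a change of more than 2-fold either way. With the slide as a block they differed by 0.29 and 0.99 (adjusted p = 0.825 and 0.567). At 3 h the replicates spread over an SD of 1.25.

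Serpine2 encodes protease nexin 1, a secreted serpin that blocks thrombin, urokinase and plasmin. Levels were 0.47, 0.24 and 0.09 in sham, -0.19, 0.32 and 0.29 at 3 h, 0.45, 0.61 and 0.58 at 12 h, then 2.04, 2.08 and 1.96 at 72 h. Sham overlapped with 3 h and with 12 h, and the 72 h arrays lay more than 1 log2 unit above all others with an SD of 0.06. Serpine2 rose 3.38-fold at 72 h against sham (1.76 ± 0.15, adjusted p = 7.81e-05), 3.70-fold against 3 h (1.89 ± 0.15, adjusted p = 5.63e-05) and 2.79-fold against 12 h (1.48 ± 0.15, adjusted p = 0.00035). At 3 h and 12 h the differences from sham were -0.13 ± 0.15 (adjusted p = 0.583) and 0.28 ± 0.15 (adjusted p = 0.25). The slide as a block left the 72 h difference from sham at 1.71 (adjusted p = 0.018). A second probe was above background on 1 of the 12 arrays and is not read. Beside this, 7 fibroblast markers summed to 6.85 to 7.0 in sham, 6.25 to 6.55 at 3 h, 6.03 to 6.15 at 12 h and 8.20 to 9.38 at 72 h, where 5 of 7 were called higher. On the 72 h replicates 1, 2 and 3 the sum was 9.38, 8.78 and 8.20, beside Serpine2 levels of 2.04, 2.08 and 1.96. The part of fibroblasts in the Serpine2 values was not tested.

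**Figure D3:**
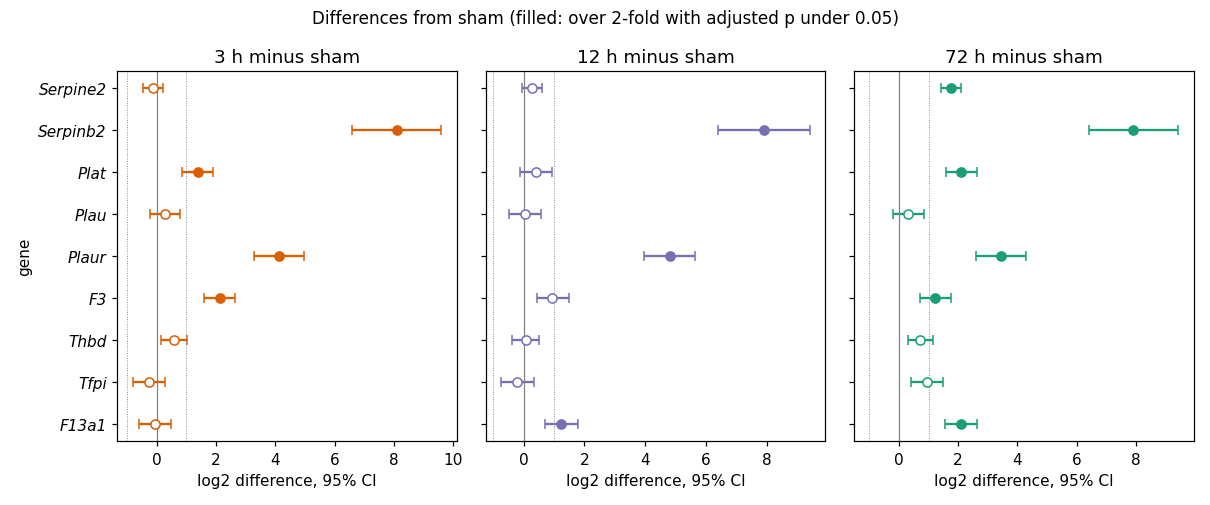
Difference of each gene from sham, with 1 panel for each time (horizontal axis, log2, with 95% confidence intervals from the fit of 12 arrays); filled points exceeded 2-fold with an adjusted p under 0.05, and dotted lines mark 2-fold. At 3 h 4 points are filled, at 12 h 3 and at 72 h 6, all to the right of 0; the Plau points are unfilled at all 3 times.

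The injured groups were also compared with each other. Between 3 h and 12 h, 1 of the 9 genes was called higher (F13a1) and 1 lower (F3), where 1.86% of all genes were called higher and 1.60% lower. Between 12 h and 72 h, Serpine2, Plat and Tfpi were called higher and Plaur lower, where 4.49% and 2.94% of all genes were. Between 3 h and 72 h, Serpine2, Tfpi and F13a1 were called higher and none of the 9 lower, against 6.26% and 5.25% of all genes. F3 was lower at 72 h than at 3 h by 0.91 on the log2 scale (-0.91 ± 0.24, adjusted p = 0.0161), and Plat higher by 0.72 ± 0.23 (adjusted p = 0.0397), both under 2-fold and with adjusted p of 0.884 and 0.234 under the slide as a block. Arrays of an injured group and of sham that do not overlap were common in the background: 44.6% of all genes showed this for 3 h, 36.7% for 12 h and 38.4% for 72 h. Between injured groups the share was 29.6% for 12 h against 3 h, 37.6% for 72 h against 12 h and 56.9% for 72 h against 3 h.

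**Figure D4:**
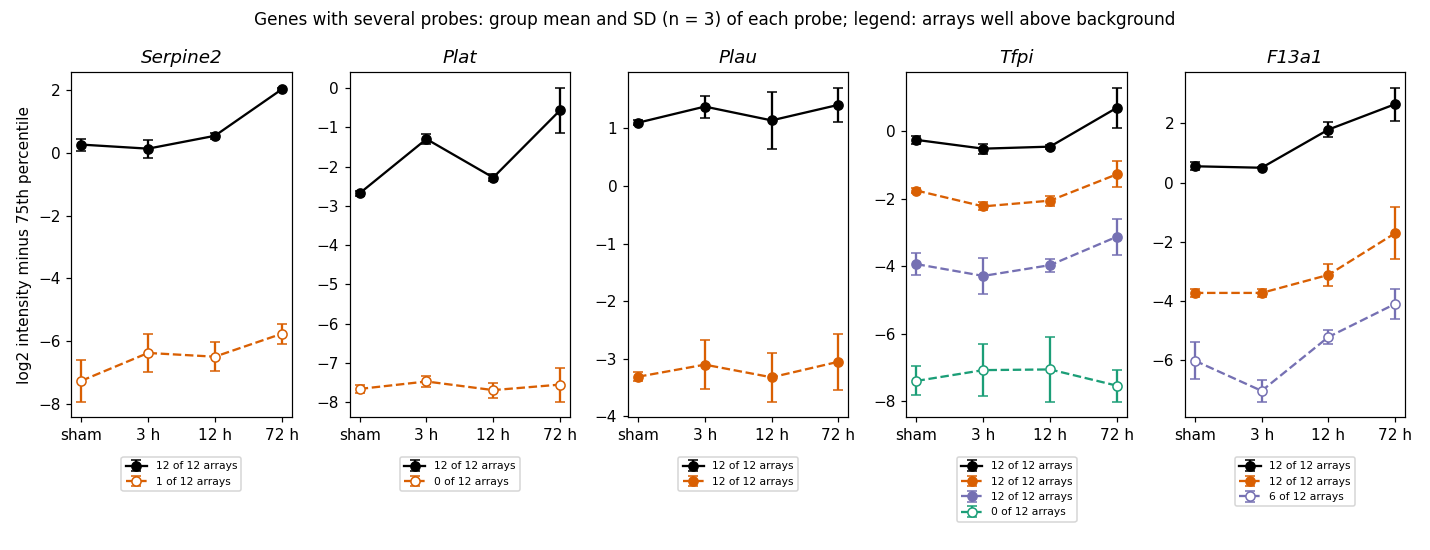
Group mean and SD (n = 3) of every probe of the 5 genes with several probes, as log2 intensity minus the 75th percentile, for sham and the 3 injured groups; solid lines are the probe used for the gene and filled points probes above background on all 12 arrays, with the number of such arrays in each legend. The F13a1 probes all end highest at 72 h, the 2 Plau probes are both level, and the second Plat probe, above background on no array, stays at the bottom.

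The course of each gene over the 12 arrays was set beside that of 15869 other genes that were above background on at least 3 arrays. Pearson's r over the 12 arrays, which share groups and so are not 12 independent points, is given as a description. The closest gene was Rhoq for Serpine2 (r = 0.986), Tfe3 for Serpinb2 (0.989), Tmem119 for Plat (0.978), Anxa1 for Plaur (0.992), Dusp8 for F3 (0.977), Clcn5 for Thbd (0.946), Adamts2 for Tfpi (0.985) and Raet1c for F13a1 (0.987). For Plau no gene came closer than Fam84a (0.839). For Plaur the next were Ccl7, a monocyte chemokine (0.990), and Osm, the cytokine oncostatin M (0.987), and Cd68 was among the 3 closest to F13a1 (0.975). Among the 9 genes the closest pairs were Serpinb2 with Plaur (0.94), Plat with Thbd (0.88) and Serpine2 with F13a1 (0.86), while Plaur and F3 ran apart from Tfpi (both -0.08).

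The other genes of coagulation and fibrinolysis were looked up as a list of 44, of which 21 were above background on all arrays and 5 on none. At 3 h 5 were called higher and 1 lower, with 6 and 2 at 12 h and 10 and 3 at 72 h, and the list's median difference from sham was 0.13, 0.04 and 0.13. The lower calls, 1, 2 and 3 of 44, stand against 4.33%, 5.33% and 4.4% of all genes, and the higher ones against 3.14%, 3.95% and 4.5%. These counts depended more on the processing than those of the 9 genes: with normexp background correction they were 2, 4 and 8 in either direction, and with the slide as a block 5 were called at 72 h. Of the 13 called at that time, 4 kept the call under the block (F5, F7, F10 and Anxa5), and 9 did not (Plg, Plgrkt, F11, Kng1, Kng2, Serping1, Pros1, Serpind1 and F2rl2). The other gene called under the block was F9, whose probe was above background on no array.

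The coagulation factors on the list were led by F10, the zymogen of the protease that makes thrombin. F10 read -5.40, -5.34 and -5.44 in sham, -0.81, -0.59 and 0.58 at 3 h, 1.94, 1.16 and 1.80 at 12 h, then 0.48, 0.55 and 2.39 at 72 h. It was higher by 5.12 ± 0.51, 7.02 ± 0.51 and 6.53 ± 0.51 at the 3 times (adjusted p = 0.000197, 2.4e-05 and 4.4e-05). Only 2 of the 3 sham arrays were above background for F10, so these sizes rest on a sham level near background. F7, the ligand of tissue factor, was above background on no sham or 3 h array and was at least 5.92-fold higher at 72 h than in sham (adjusted p = 0.000395). Tgm2, a transglutaminase like factor XIII, was higher by 1.81 ± 0.17 at 12 h (adjusted p = 8.3e-05). In all, 2, 3 and 3 of 13 coagulation factors were called higher at the 3 times and none lower.

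In the plasminogen system 2 of 10 genes were higher at 3 h, both just over 2-fold; they were Anxa2 and S100a10, which together form a cell-surface receptor for plasminogen, and were named after their values were seen. Vtn, the adhesive protein vitronectin, was lower at 3 h (-1.29 ± 0.35, adjusted p = 0.0288) and at 12 h (-1.52 ± 0.35, adjusted p = 0.0115). At 72 h 2 genes of this group were lower, the plasminogen receptor Plgrkt (-1.44 ± 0.17, adjusted p = 0.000434) and Plg itself, which was above background on 2 sham arrays and no 72 h array, and none was higher. At 72 h 4 of the 6 contact pathway genes were called, 3 of them higher. The largest difference was that of the kininogen Kng1 (5.46 ± 0.96, adjusted p = 0.00364), whose 72 h arrays read 2.53, 0.59 and -2.45. Kng1 was above background on 2 sham arrays, so its size rests on a sham level near background. Kng2 was called higher (adjusted p = 0.0168) and was above background on no sham array and on 2 arrays at 72 h. Its 72 h replicates 1, 2 and 3 read -0.58, -2.63 and -5.87, and no bound is given because not all of them were above background. F11, above background on 1 sham array and no 72 h array, was called lower, again with no size given.

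Of 11 genes listed under anticoagulants, 1 was called higher at 3 h and 3 higher at 72 h. The 1 lower call, at 12 h, was Gas6, and its place on the list does not show that it acts as an anticoagulant. No other gene of this list was called lower than sham. Serpind1, which encodes the thrombin inhibitor heparin cofactor II, was above background on no sham array and at least 2.35-fold higher at 72 h (adjusted p = 0.00344). Anxa5, which covers the phospholipid that clotting factors need, was higher by 1.38 ± 0.12 at 72 h (adjusted p = 8.6e-05), and Gas6 was lower at 12 h (-1.14 ± 0.17, adjusted p = 0.00124). The 4 genes listed under thrombin receptors encode protease-activated receptors, and not every one of these is a receptor for thrombin. At 12 h 2 were called higher and at 72 h 1. F2rl2 was higher by 2.28 ± 0.38 at 12 h (adjusted p = 0.0022) and by 1.78 ± 0.38 at 72 h (adjusted p = 0.00912). F2rl3 was higher by 1.05 ± 0.33 at 12 h (adjusted p = 0.0473). In sham F2rl2 was above background on 2 arrays and F2rl3 on 1, so both sizes rest on sham levels near background.

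**Figure D5:**
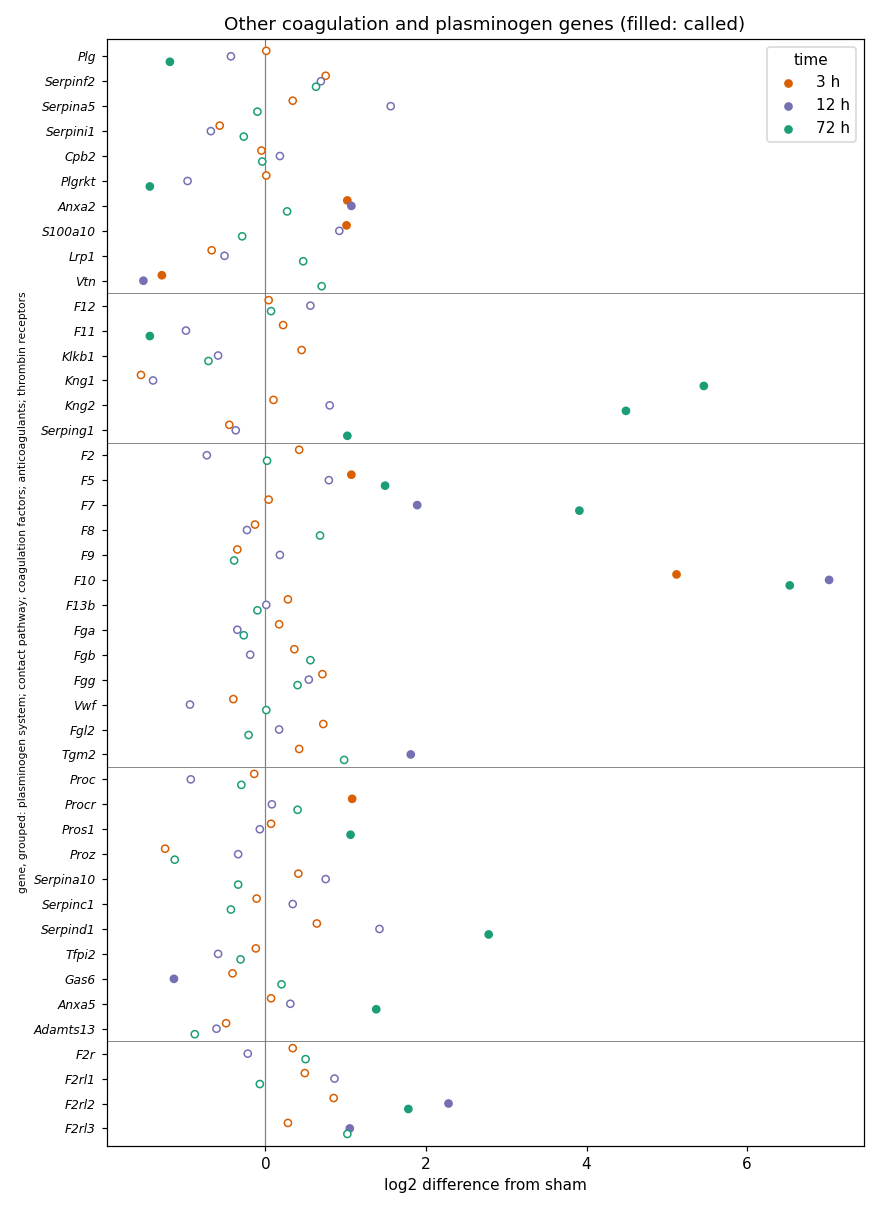
Difference from sham (horizontal axis, log2) of 44 other genes of coagulation and fibrinolysis, coloured by time after cauterization, in 5 groups from top to bottom: plasminogen system, contact pathway, coagulation factors, anticoagulants and thrombin receptors; filled points were called. Most points lie near 0, and F10 stands to the right at all 3 times.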

How the data were processed

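Total RNA from 12 mouse ceca (sham, 3 h, 12 h and 72 h; 3 each) was labelled with Cy3 and hybridised to Agilent SurePrint G3 Mouse GE v2 arrays, with 1 colour per array. The deposited scanner files hold probe intensity values made by the authors with Feature Extraction 11.5.1.1, per the file headers and labels, with mm9 probe annotation. The authors' methods scale each array to its 75th percentile. The same was done here: log2 of the processed signal minus its 75th percentile over non-control probes, with outlier spots left out (53 to 152 per array) and spots of a probe averaged. A second deposited table holds the authors' log2 values (r = 0.9995 with the values used here once each probe was centred on its median over the arrays; column medians -0.179 to 0.128, so scale, centring and direction are known) and served as an alternative.

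The 4 group means were fitted together with limma 3.58.1 (R 4.3.3), and p-values were adjusted by Benjamini-Hochberg across the 56605 probes; a call needed a fold over 2 and an adjusted p under 0.05, as in the methods. The fit was tested on simulated data. The number of arrays limits the precision, and p-values measure the spread between these arrays. The labels' replicate numbers did not pair samples. Genes were named from the files. The text names all 9 genes with every probe, at most 3 list genes per group by largest change unless stated, and the genes of most similar course. Alternatives covered scaling, background correction, dim probes, slide, replicate block, probe choice, tests, thresholds and left-out arrays; fits on the arrays of 1 slide were added after seeing the data. The 9 genes and all lists were chosen with earlier results of these data known. Some items are not reported here. Of the marker lists, Emr1 and Muc16 had no probe by that name.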

Additional observations from a re-analysis of the deposited data

Results flagged for a closer look

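Between the injured groups, 9 differences in 6 of the 9 genes passed the test of the difference itself (limma, adjusted p under 0.05 and over 2-fold), and none in Serpinb2, Thbd or Plau. Among all genes 1.86% were called higher and 1.6% lower from 3 h to 12 h, 4.49% and 2.94% from 12 h to 72 h, and 6.26% and 5.25% from 3 h to 72 h. From 3 h to 12 h, F3 differed by -1.18 (adjusted p = 0.0152) and F13a1 by 1.28 (adjusted p = 0.012). From 12 h to 72 h, Serpine2 differed by 1.48 (adjusted p = 0.00035), Plat by 1.71 (adjusted p = 0.00128), Tfpi by 1.14 (adjusted p = 0.0106) and Plaur by -1.35 (adjusted p = 0.0364). From 3 h to 72 h, Serpine2 differed by 1.89 (adjusted p = 5.63e-05), Tfpi by 1.20 (adjusted p = 0.0048) and F13a1 by 2.15 (adjusted p = 0.000245). The F3 fall was -0.91 and not called without the 12 h replicate 3, the Plaur fall lost its call in 12 of 27 alternatives, and both Tfpi values lost theirs with the slide as a block (1.21 and 1.30, adjusted p = 0.105 and 0.106). Each value is a log2 difference, later minus earlier time, from 3 arrays against 3.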

How the results depend on the processing

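Of the 22 called differences of the 9 genes, none changed sign under any of the alternatives run. Calls of the 9 genes against sham were kept with the slide as a block. The 3 h differences could not change under it, because all sham and 3 h arrays were on 1 slide. At 72 h the block rests on 1 array of the 12 h group, and adjusted p was 0.0451 for F13a1 and 0.03 for Plat. Plat lost its 3 h call with normexp (0.80) and with the mean of its probes (0.79), and F13a1 its 12 h call with the mean of its probes (0.88). The methods name a paired t-test for comparing 2 groups in general, but name no test for the array calls. Run here, it paired arrays by replicate number, although these numbers did not mark pairs, so it does not stand for the authors' array analysis. After Benjamini-Hochberg adjustment it called 0 of the 9 genes in every comparison and 0 of the 44 list genes against sham. Without adjustment it called 8 list genes at 72 h against sham, and 1 of the 9 genes from 3 h to 12 h and 2 from 12 h to 72 h.

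Replicate numbers did not mark pairs: deviations of same-numbered arrays correlated at -0.162 to 0.087, with 0 of 18 pairs above 0.1. With the replicate block 4, 3 and 6 of the 9 genes were called against sham, 2, 3 and 3 in the comparisons between injured groups, and 6, 7 and 13 list genes; Plaur lost its fall from 12 h to 72 h (adjusted p = 0.0704).

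Counts of list genes moved at 3 h to 3 with quantile normalization, to 2 with a percentile of the always detected probes, to 2 with normexp and to 1 with a test against 2-fold (treat). At 12 h they moved to 4 with normexp, 2 with treat, 5 with the methods' Dunnett test, 5 with an adjusted p under 0.01 and 13 with no fold threshold, and at 72 h to 8 with normexp, 3 with treat and 5 with the slide as a block. Of the 9 genes, the count from 3 h to 12 h was 1 with the slide as a block, with only the 2 groups fitted and on the arrays of slide 1 alone, and 0 with treat and with an adjusted p under 0.01. From 12 h to 72 h it was 2 with the slide as a block, with only the 2 groups fitted and with an adjusted p under 0.01, and 0 with treat and on the arrays of slide 2 alone. From 3 h to 72 h it was 5 with no fold threshold. The causes were not tested, beyond the fewer arrays of the fits on 1 slide, of which that on slide 2 sets 1 array at 12 h, assumed to vary like the others, against 3 at 72 h.

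Leaving out 1 array at a time gave 4 to 4, 3 to 4 and 6 to 7 of the 9 genes against sham, 1 to 2 from 3 h to 12 h, 2 to 4 from 12 h to 72 h and 2 to 4 from 3 h to 72 h, and 3 to 6, 6 to 11 and 11 to 14 list genes. Differences that were not called could change sign. Left-out arrays gave a range at 3 h against sham of -0.12 to 0.02 for F13a1 and -0.22 to 0.04 for Serpine2; at 12 h against sham of -0.13 to 0.32 for Plau and -0.04 to 0.14 for Thbd; from 3 h to 12 h of -0.83 to 0.43 for Serpinb2 and -0.41 to 0.04 for Plau; from 12 h to 72 h of -0.46 to 0.39 for Serpinb2, -0.01 to 0.44 for Plau and 0.00 to 0.50 for F3; and from 3 h to 72 h of -0.80 to 0.45 for Serpinb2, -0.10 to 0.19 for Plau and -0.03 to 0.39 for Thbd. With the slide as a block, and on the arrays of slide 1 alone, the 3 h to 12 h difference was 0.29 for Serpinb2 and 0.04 for Plau; with the block the 3 h to 72 h difference was 1.28 for Serpinb2 and 0.26 for Plaur. The mean of all probes gave 0.38 for Serpine2 at 3 h.

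The median difference of all probes from 3 h to 72 h was -0.23, with -0.12 under the percentile of always detected probes and -0.30 under normexp. Probes near background, such as Serpinb2 in sham, hold only bounds there.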
